A study of Mus musculus with 4 samples.

Results

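The Pax genes are the 9 genes Pax1 to Pax9 of the mouse, and they were examined here for occupancy by RYBP, a subunit of non-canonical Polycomb repressive complex 1 (PRC1). They were found by symbol among 22208 protein-coding genes of the GENCODE annotation on the genome build mm9 (NCBIM37). For each gene the locus was taken as the gene body with 5 kb upstream, and all 35 merged RYBP regions that overlapped a Pax locus, of 22409 in the whole series, were read. RYBP occupancy had been measured by chromatin immunoprecipitation and sequencing (ChIP-seq) in FLK1+ mesodermal cells sorted from embryoid bodies (EBs), the aggregates that mouse ES cells form as they differentiate. Both RYBP ChIP samples and both input samples were wild type, of strain C57Bl/6 X Sv129 and from EBs of day 3.75 according to the labels, although the study's methods place the experiment slightly later. The study names J1 as its wild-type ES cells and gives such a cross as the strain of its mice. The antibody was anti DEDAF, DEDAF being another name of RYBP, and the 2 ChIP samples came from separate differentiations. The design text of the series names SCL as the precipitated protein, whereas the title and the antibody name RYBP. All cells derived from ES cells grown in culture and not from embryos, and the sorted mesoderm is a mixture of cells that are about to take different fates. No expression value or marker gene was measured in these files, so the FLK1+ identity of the cells rests on the labelled sort alone.

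Pax proteins are transcription factors that bind DNA through the paired domain, and they direct the formation of organs from all germ layers. They fall into subfamilies by structure, namely Pax1 with Pax9, Pax2 with Pax5 and Pax8, Pax3 with Pax7, and Pax4 with Pax6. RYBP-containing PRC1 places ubiquitin on histone H2A, a mark of repressed chromatin, and Polycomb complexes are known to gather at CpG-rich start sites of silent developmental regulators.

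The values are peaks and not reads. Each replicate has a list of broad peaks with a fold enrichment, the ratio of pile-up to local background at the peak, and with a q-value, and the merged list is the union of both. Replicate 1 held 14794 peaks and replicate 2 held 18154, of which 36 in each list overlapped a Pax locus. The number of reads behind a peak is not given in these lists, and of the ChIP libraries the one with fewer peaks had more mapped reads by the study's own account. As the lists stand, no peak means that none passed the caller's threshold. A region was placed at a start site when it came within 2.5 kb of the start of a protein-coding transcript of the gene, in the gene body when it overlapped the rest of the gene, and otherwise upstream.

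The sequences below show the range of DNA found under and beside the Pax peaks, with each CpG dinucleotide in capitals. The bases just before the most upstream start are given for Pax9 (chr12:57792554-57792753, plus strand, 17 CpG), which lay almost whole under peaks of both replicates, for Pax6 (chr2:105508853-105509052, plus strand, 13 CpG), which lay whole under both, for Pax8 (chr2:24331120-24331319, minus strand, 6 CpG), of which replicate 1 covered 29 bp and replicate 2 covered 0, and for Pax4 (chr6:28399354-28399553, minus strand, 2 CpG), which no peak reached. For the gene bodies, the middle of an intronic Pax5 region (chr4:44677008-44677157, minus strand, 18 CpG) and of an intronic Pax7 region (chr4:139373183-139373332, minus strand, 1 CpG) are shown, as examples of a CpG-rich and a CpG-poor intron. The Pax5 stretch comes from a region that also holds the start of a non-coding transcript, Gm12462. All sequences are read 5′ to 3′ on the strand of the Pax gene from the NCBIM37 genome.
Pax9 upstream: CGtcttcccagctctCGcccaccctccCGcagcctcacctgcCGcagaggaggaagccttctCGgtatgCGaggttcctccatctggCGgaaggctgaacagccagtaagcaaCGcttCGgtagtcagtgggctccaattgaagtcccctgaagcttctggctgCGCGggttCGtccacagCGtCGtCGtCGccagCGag
Pax6 upstream: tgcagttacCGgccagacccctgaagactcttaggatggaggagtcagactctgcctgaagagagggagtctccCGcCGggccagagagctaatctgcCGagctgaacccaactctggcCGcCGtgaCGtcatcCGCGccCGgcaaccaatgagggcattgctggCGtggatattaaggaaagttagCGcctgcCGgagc
Pax8 upstream: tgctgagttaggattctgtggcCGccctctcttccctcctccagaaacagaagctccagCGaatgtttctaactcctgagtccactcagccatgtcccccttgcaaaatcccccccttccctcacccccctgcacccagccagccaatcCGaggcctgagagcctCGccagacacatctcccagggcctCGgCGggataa
Pax4 upstream: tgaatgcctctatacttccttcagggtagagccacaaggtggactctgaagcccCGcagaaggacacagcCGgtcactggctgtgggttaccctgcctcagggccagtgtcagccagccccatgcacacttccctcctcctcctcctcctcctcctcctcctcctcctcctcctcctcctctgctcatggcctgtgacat
Pax5 intron: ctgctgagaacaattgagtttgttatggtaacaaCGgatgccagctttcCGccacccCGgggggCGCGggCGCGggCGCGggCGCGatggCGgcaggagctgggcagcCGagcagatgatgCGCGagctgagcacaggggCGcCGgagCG
Pax7 intron: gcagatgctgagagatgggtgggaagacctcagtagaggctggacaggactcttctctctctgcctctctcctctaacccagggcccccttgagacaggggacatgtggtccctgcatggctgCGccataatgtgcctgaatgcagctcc

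RYBP peaks lay at 8 of the 9 Pax loci, Pax4 being the exception, and the same 8 genes had a region at a start site. Across all genes a merged region lay at 57.1% of loci and at a start site of 53.4%, so that 8 of 9 (exact binomial interval 51.8% to 99.7%) held the background share of loci within its counting error. Among the 12621 genes whose most upstream start was CpG-rich, at 3 or more CpG per 100 bp, these shares were 83.8% and 81.8%, and every share given below for CpG-rich genes in this paragraph likewise lay inside that interval. For the Pax genes the count did not fall when more was asked of a region. A region that overlapped peaks of both replicates was present at 8 of 9 loci, against 38.9% of all loci and 59.8% of those with a CpG-rich start. Such a region was at a start site of 8 of 9, against 36.8% and 58.2%. Peaks of replicate 1 alone were present at 8 of 9 loci (background 43.9%, and 65.1% with a CpG-rich start) and those of replicate 2 alone at 8 of 9 (background 53.6% and 80.1%).

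The Pax counts stood further from the background in the extent of the peaks. The calls at 4 kb, at 10% coverage and at 2 or more regions were not among the results planned at the outset. A merged region of at least 4 kb was found at 6 of 9 Pax loci, namely Pax1, Pax2, Pax3, Pax6, Pax7 and Pax9, whereas 2.88% of all loci held one, or 4.29% of those with a CpG-rich start. The same 6 genes had at least 10% of the locus covered, against 14.0% of all loci and 20.2% of those with a CpG-rich start. At 7 of 9 loci there were 2 or more regions, against 17.9% and 25.5%. The median Pax locus was covered to 18.6%, compared with 0.786% over all loci and 3.58% over loci that held any region. Pax loci are long, with a median of 60.0 kb against 20.5 kb over all genes, and summed over bases 18.2% of the Pax loci were covered against 2.14% of all loci.

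**Figure D1:**
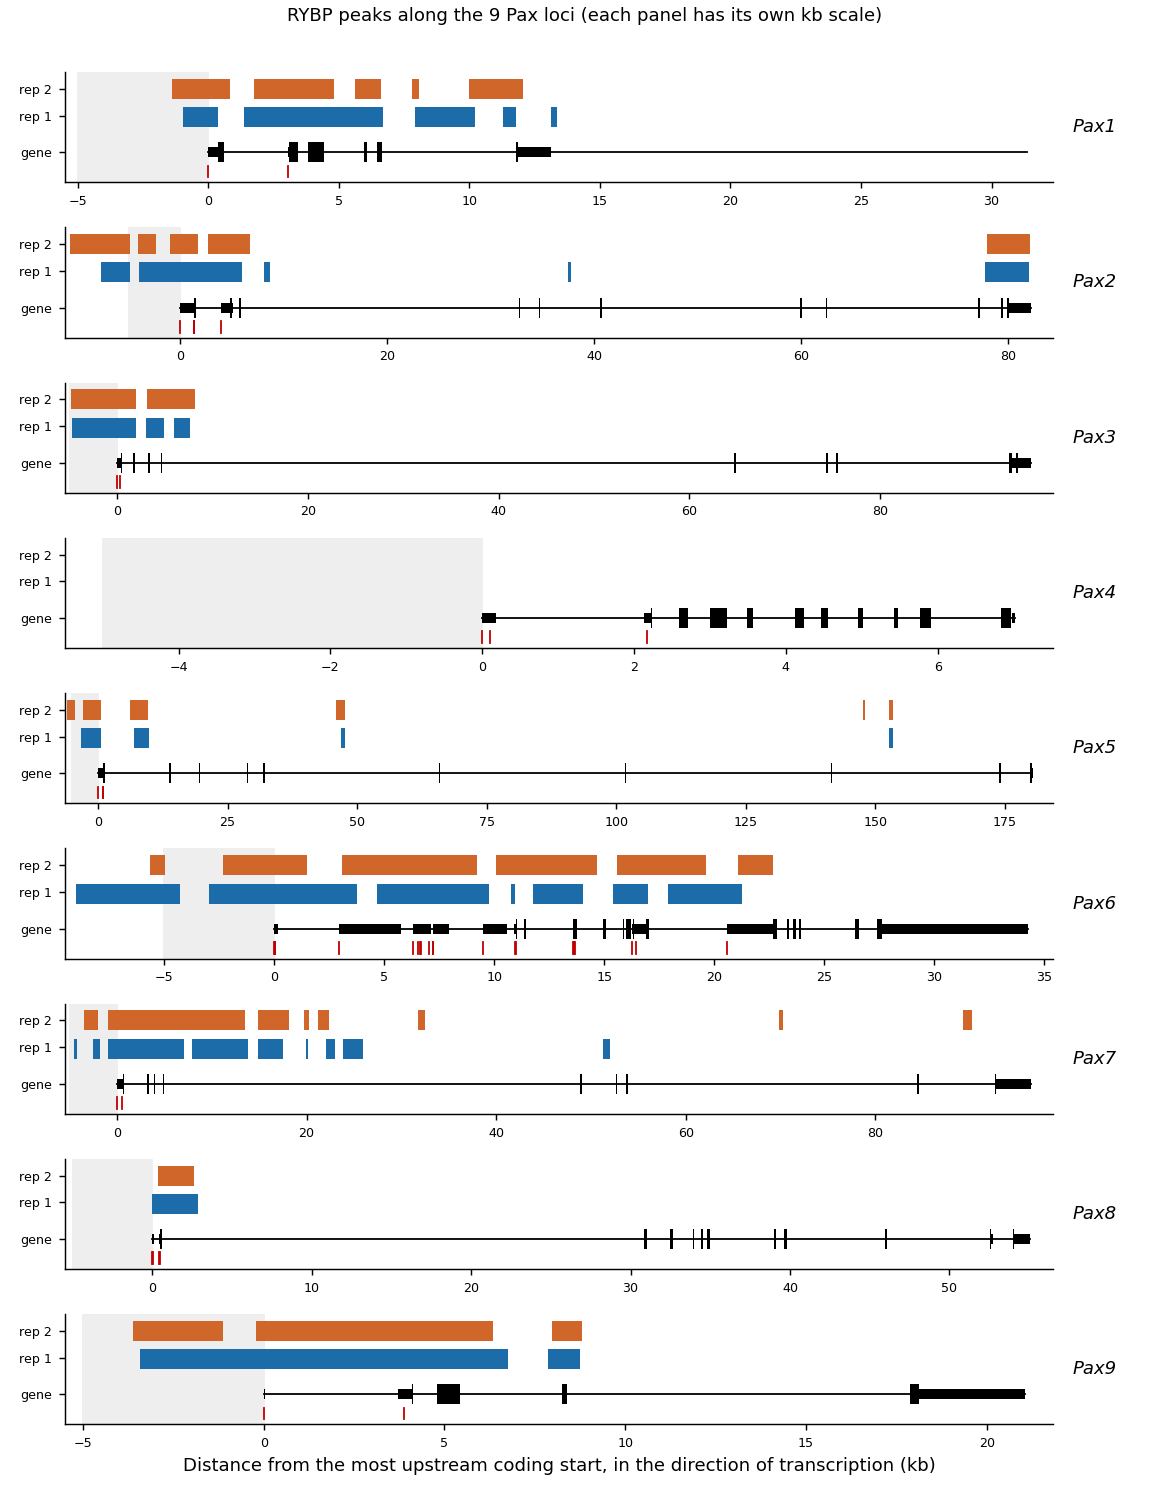
Peaks of replicate 1 (blue) and replicate 2 (orange) along each Pax locus, with distance from the most upstream coding start in kb on the horizontal axis and a scale of its own in each panel. Black boxes are exons of coding transcripts, tall for coding and lower for untranslated sequence, red ticks are coding starts and grey marks the 5 kb upstream. Peaks sit over the starts of 8 genes, run on into the gene at Pax6 and Pax7, and are missing at Pax4.

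Ordered by the share of the locus under peaks, Pax6 came before Pax9, Pax1, Pax7, Pax2, Pax3, Pax5, Pax8 and Pax4. Mean coverage over the 2 replicates was 51.2% ± 0.522 (SD, n = 2) at Pax6, 40.2% ± 3.40 at Pax9, 25.1% ± 2.05 at Pax1 and 21.9% ± 1.05 at Pax7. It was 15.9% ± 2.04 at Pax2, 11.0% ± 1.00 at Pax3, 5.03% ± 0.796 at Pax5 and 4.31% ± 0.716 at Pax8. Among neighbours in this order, the replicate values overlapped at Pax5 (4.47% and 5.60%) and Pax8 (4.82% and 3.81%), which therefore cannot be ordered, while each other neighbouring pair was separated in both replicates. With 2 replicates no test of these differences was made. By the number of bases rather than the share, Pax7 led with 27.1 kb, a total that only 7 of all genes reached, itself included, and Pax6 followed with 25.3 kb, reached by 12.

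Pax1 and Pax9 act in the sclerotome, which forms the vertebral column, and in the pharyngeal pouches. At Pax9 (ENSMUSG00000001497.11, chr12:57792754-57813809, plus strand) the start-site region of 10384 bp ran from 3610 bp before the most upstream start to 6773 bp beyond it. Replicate 1 drew it as a single peak of 10203 bp at 3.99-fold enrichment. Replicate 2 split it into a peak of 2496 bp at 3.59-fold and one of 6542 bp at 4.92-fold, which began 199 bp before that start. Both replicates thus placed the larger part over the 5′ portion of the gene, and both called a smaller region of 939 bp further in, at 3.10-fold and 3.68-fold, which held 143 bp of coding sequence. Pax9 coverage was 42.6% and 37.8% in replicates 1 and 2, with 0.850 of the bases called in either replicate called in both.

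At Pax1 (ENSMUSG00000037034.8, chr2:147187661-147219031, plus strand), both coding starts lay under peaks of both replicates. Coverage was 26.6% and 23.7%, but only 0.521 of the called bases were shared, the lowest value of the 8 genes. The start-site region of 2230 bp was covered to 60.0% by the replicate 1 peak and wholly by that of replicate 2, at 3.29-fold and 3.44-fold. A further region of 5325 bp followed it, a single peak at 3.88-fold in replicate 1 and a pair of peaks of up to 4.23-fold in replicate 2. The strongest Pax1 peaks were in neither of these: in replicate 2 a peak of 256 bp in the gene body reached 4.40-fold, and in replicate 1 one of 217 bp that replicate 2 lacked reached 4.001-fold.

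Pax2, Pax5 and Pax8 differed among themselves in the extent of their peaks. Pax2 is required for the kidney and the midbrain-hindbrain boundary, Pax5 commits lymphoid progenitors to the B cell lineage, and Pax8 drives thyroid and kidney development. At Pax2 (ENSMUSG00000004231.7, chr19:44830539-44912758, plus strand) a region of 10832 bp held all 5 coding starts. Replicate 1 called it as a single peak of 9909 bp at 4.24-fold, and replicate 2 as 3 peaks, of which the middle one, over the most upstream start, had the highest fold enrichment of any Pax peak, 5.60-fold, with −log10 q of 9.66. A region of 7550 bp lay just before it, mostly beyond the 5 kb limit, at 4.30-fold in replicate 1 and 3.94-fold in replicate 2. Coverage of the Pax2 locus was 17.4% and 14.5%.

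Pax2 also carried a region at its far end. It measured 4310 bp (chr19:44908297-44912606), was found in both replicates at 3.45-fold and 3.83-fold, and overlapped 225 bp of coding sequence and 2028 bp of untranslated sequence. The annotation places the start of a non-coding transcript on the other strand, 1700039E22Rik, inside it, so that it stands at the end of Pax2 and at the start of another transcript unit. The other gene-body regions of Pax2 were small, 646 bp and 294 bp, and were called in replicate 1 alone.

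At Pax5 (ENSMUSG00000014030.9, chr4:44544017-44724318, minus strand), the longest locus of the family at 185.3 kb, 5.98% of bases were covered in the merged list. The start-site region of 3876 bp, at 4.22-fold and 4.10-fold, held the most upstream of 3 coding starts, and the other starts, 1028 bp and 1038 bp further on, were under no peak of either replicate. Introns of Pax5 held strong peaks as well. A region of 3682 bp that began 6163 bp into the gene reached 4.01-fold and 5.40-fold. Another intronic region, of 1810 bp, which began 45894 bp into the gene, reached 3.61-fold and 5.34-fold and contained the start of the non-coding transcript Gm12462. The last shared one, of 789 bp, reached 3.06-fold and 3.996-fold at 152610 bp from the start. In replicate 2 the strongest Pax5 peak was thus in the gene body and not at the start, while in replicate 1 it was at the start.

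Pax8 (ENSMUSG00000026976.8, chr2:24276071-24331119, minus strand) had a single region of 2893 bp at its start. Replicate 1 covered it wholly at 3.26-fold, and replicate 2 covered 79.0% of it at 3.85-fold, both the lowest values among the highest peaks of the 8 genes. The replicate 1 peak reached 29 bp beyond the most upstream start, whereas the replicate 2 peak began 350 bp inside the gene, so that 4 coding starts were covered in replicate 1 and 2 in replicate 2. As many covered bases as at Pax8 were found at 2105 genes, 9.48% of all, so its extent was common in these lists.

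Pax3 and Pax7 mark the progenitors of skeletal muscle and parts of the neural crest and dorsal neural tube. At Pax3 (ENSMUSG00000004872.9, chr1:78097842-78193709, minus strand) both replicates drew the start-site region nearly alike, as peaks of 6732 bp and 6783 bp at 4.13-fold and 3.75-fold. A region of 5156 bp in the gene body began 2976 bp from the most upstream start and so lay just outside the start-site window. It was a pair of peaks of up to 3.82-fold in replicate 1 and 1 peak of 4.46-fold in replicate 2. Coverage of the locus was 10.2% and 11.7%, and 0.842 of the called bases were shared.

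Pax7 (ENSMUSG00000028736.6, chr4:139292977-139389445, minus strand) had 11 regions, the largest number in the family. The main one, of 14779 bp, was the 19th widest of all merged regions, and it ran from 942 bp before the start to 13836 bp inside the gene. Replicate 2 called it as 1 peak of 14435 bp at 4.61-fold, and replicate 1 as a peak of 8001 bp at 3.99-fold with one of 5962 bp at 4.31-fold deeper in the gene. Beyond it lay 8 gene-body regions, all intronic, with fold enrichments from 2.96 to 3.65. The 3 nearest to the main region were found in both replicates. Of the other 5, replicate 1 called 2 and replicate 2 called 3, and none was shared. Coverage was 21.1% and 22.6% in replicates 1 and 2.

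Pax4 and Pax6 gave the extremes of the family. Pax6, known for its part in eye, forebrain and endocrine pancreas development, lies at chr2:105509053-105543317 (plus strand, ENSMUSG00000027168.12) and has 21 coding starts spread over 20559 bp. All 21 were inside a merged region, 20 inside a replicate 1 peak and 18 inside a replicate 2 peak. There were 3 start-site regions, of 12746 bp, 4599 bp and 7278 bp, and an upstream one of 4725 bp, each found in both replicates. The widest reached 5.01-fold in replicate 1 and 5.11-fold in replicate 2, the closest agreement between replicates of any highest peak in the family. The replicates covered 50.8% and 51.6% of the locus but shared only 0.588 of the called bases, so that near-equal totals arose from peaks with different edges. Past the last start-site window, the remaining 11205 bp of the gene held 0 bases under a peak in either replicate.

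Pax4 (ENSMUSG00000029706.8, chr6:28392334-28399353, minus strand), which acts in pancreatic beta cell development, had no peak in either list at its locus or its 3 coding starts. The nearest merged region lay 18178 bp away and was 571 bp wide. Pax4 had the shortest locus, 12.0 kb, and its start was poor in CpG, with 0.300 per 100 bp against a median of 4.10 over all genes, whereas 7 of the 9 Pax genes had a CpG-rich start. Pax8 was the other exception, with 1.80 per 100 bp at its most upstream start. The other coding starts of Pax8 had 2.10 to 2.90, and its RYBP region had 3.77. Whether the base composition or the length bears on the missing peak was not tested, and the absence of a called peak is not the absence of RYBP.

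Start sites and gene bodies were then set against each other over the 35 regions. There were 12 start-site regions (34.3%), 19 in gene bodies (54.3%) and 4 upstream (11.4%). Start-site regions were thus fewer in the merged list, but not among regions found in both replicates, of which 12 were at start sites and 10 in gene bodies. They were wide, with a median of 6082 bp and a range of 1602 bp to 14779 bp, and made up 64.0% of the summed width. Gene-body regions had a median width of 887 bp, from 217 bp to 5156 bp, and made up 25.1%. Counted as peaks, replicate 1 had 15 at start sites, 18 in gene bodies and 3 upstream, and replicate 2 had 17, 16 and 3, so the order of the counts differed between replicates.

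By bases the start sites led in each replicate. Coverage of the start-site windows and of the rest of the gene was also not among the results planned at the outset. Summed over the start-site windows of the 9 genes, 70.1% of bases were under a peak in replicate 1 and 67.1% in replicate 2, and 78.5% under a merged region, against 12.4% over all genes. In the rest of the gene bodies 6.44% and 6.85% were covered, and 8.33% in the merged list, against 0.572% over all genes. The stretch from 2.5 kb to 5 kb upstream was covered to 31.3% and 31.5%, and to 40.0% in the merged list, against 2.65% over all genes. The values over all genes include genes without a region, as 53.4% of all genes had one at a start site. They were not computed for genes with a CpG-rich start alone. Pax gene bodies outside the windows were therefore covered more than the average gene body in both replicates, but far less than their own start sites.

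**Figure D2:**
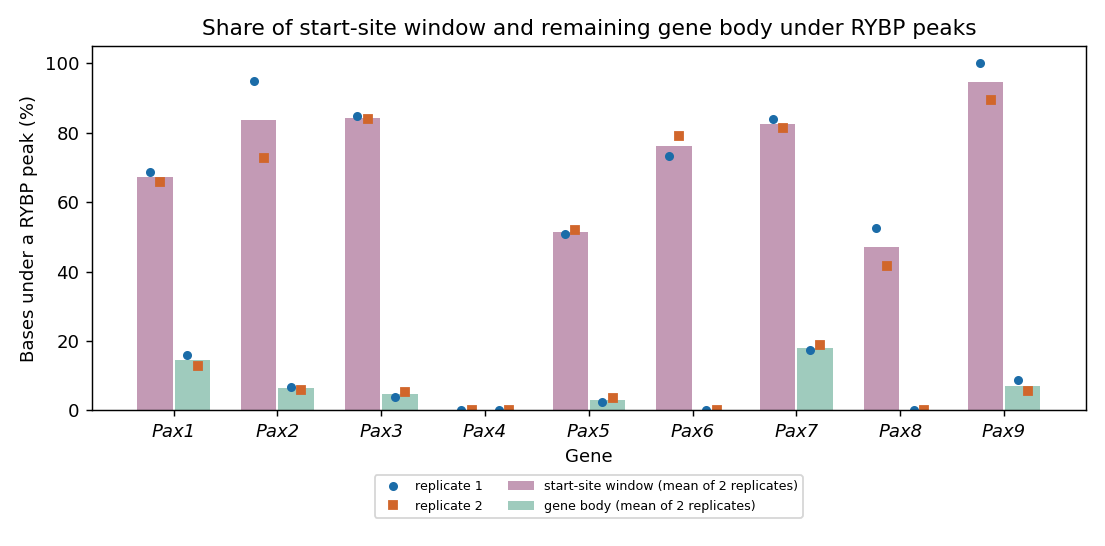
Percent of bases under a RYBP peak in the start-site window (2.5 kb on each side of every coding start) and in the rest of the gene body of each Pax gene. Bars are means of 2 replicates and points are the single replicates. Start-site windows exceed gene bodies at 8 genes, and Pax4 is at 0 in both.

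Single genes spread widely around these sums. The merged list covered the whole start-site window at Pax2 and Pax9, 94.4% at Pax6, 84.9% at Pax3, 83.9% at Pax7 and 79.7% at Pax1. At Pax5 it covered 52.0% and at Pax8 52.6%. In the gene body Pax7 (22.6%) and Pax1 (21.7%) had the most, Pax9 had 9.13%, Pax2 7.43%, Pax3 5.54% and Pax5 3.72%, and Pax6 and Pax8 had 0 besides Pax4. The 0 of Pax6 depends on its many starts, whose windows took up 25560 bp and left 11205 bp as gene body, against 52046 bp at Pax8. Of the 80910 bp of start-site windows in the family, those 25560 bp were at Pax6. Of 44 coding starts in the family, 39 were inside a merged region, 38 inside a replicate 1 peak and 34 inside a replicate 2 peak. Pax6 alone supplied 21 of the 44, many of them close together, so these counts lean on that locus. The share over all coding starts was not computed.

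The replicates shared most of what they called at Pax loci. Replicate 1 peaks covered 98.8 kb and replicate 2 peaks 98.7 kb, with 79.6 kb in common, which is 0.675 of the bases called in either. Of the 35 regions 25 were found in both replicates (71.4%, exact binomial interval 53.7% to 85.4%), against 44.2% of all merged regions. All 12 start-site regions were among them, as were 10 of 19 gene-body regions and 3 of 4 upstream ones. The regions of a single replicate, 6 in replicate 1 and 4 in replicate 2, were narrow, with medians of 503 bp and 571 bp against 4251 bp for those found in both. Their −log10 q values, 1.14 to 3.15 in replicate 1 and 1.26 to 1.67 in replicate 2, began near the lowest in the lists, 1.00 and 1.01. Widths entered how a merged region was made, so wide regions had more chance to touch a peak of the other list, and the interval covers counting error over regions only.

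Fold enrichment at the Pax genes was moderate. The highest peak of a Pax locus had a median of 4.17-fold in replicate 1 and 4.77-fold in replicate 2, over the 8 loci with a peak, against 3.53 and 3.92 over all loci with a peak. A locus with more peaks has more chance of a high one, and most Pax loci held several. Over single peaks the medians lay closer, at 3.63 and 3.84 for Pax peaks against 3.29 and 3.60 for all peaks, in replicates 1 and 2. In replicate 1 the strongest Pax peak, at Pax6, was exceeded by 369 peaks of the list (2.49%), and in replicate 2 the strongest, at Pax2, by 739 (4.07%). All 8 genes had the higher value in replicate 2, as did 78.3% of all loci with peaks in both, so the direction was that of the lists as a whole. Among the 25 regions found in both, 19 were higher in replicate 2, by a median difference of 0.288 in fold enrichment over all 25.

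Over the regions each replicate called, those at start sites had median fold enrichments of 3.996 and 4.08 in replicates 1 and 2, and gene-body regions 3.45 and 3.65. With each peak placed by its own position, however, the highest replicate 2 peak at Pax1, Pax3 and Pax5 was in the gene body. It stood at 4.40-fold, 4.46-fold and 5.40-fold, against 3.71-fold, 3.75-fold and 4.10-fold for the highest peak that came within the start-site window. At Pax1 another replicate 2 peak, of 4.23-fold, began just past that window but belonged to a start-site region. The 3 highest peaks in the gene body belonged to regions that replicate 1 also called. These regions lay 4728 bp, 2680 bp and 5125 bp from the nearest coding start at Pax1, Pax3 and Pax5. A window of 5 kb would place those of Pax1 and Pax3 at a start site. The order of start site and gene body was not shared by the replicates at all of these genes. In replicate 1 the start-site peak was the higher at Pax3, at 4.13-fold against 3.82-fold, and at Pax5, at 4.22-fold against 4.01-fold. At Pax1 the gene body was the higher, at 4.001-fold against 3.88-fold, but through a region that replicate 2 lacked. In the shared Pax1 gene-body region replicate 1 reached 3.90-fold. The highest replicate 1 peak of Pax7 also lay outside the start-site window, at 4.31-fold against 3.99-fold within it, although it belonged to a start-site region. These are single values of each list, with no error of their own, and the peaks compared differed in width. At Pax1 the replicate 2 peaks of 4.40-fold and 3.71-fold were 256 bp and 3071 bp wide. Whether fold enrichment depends on width was not tested.

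**Figure D3:**
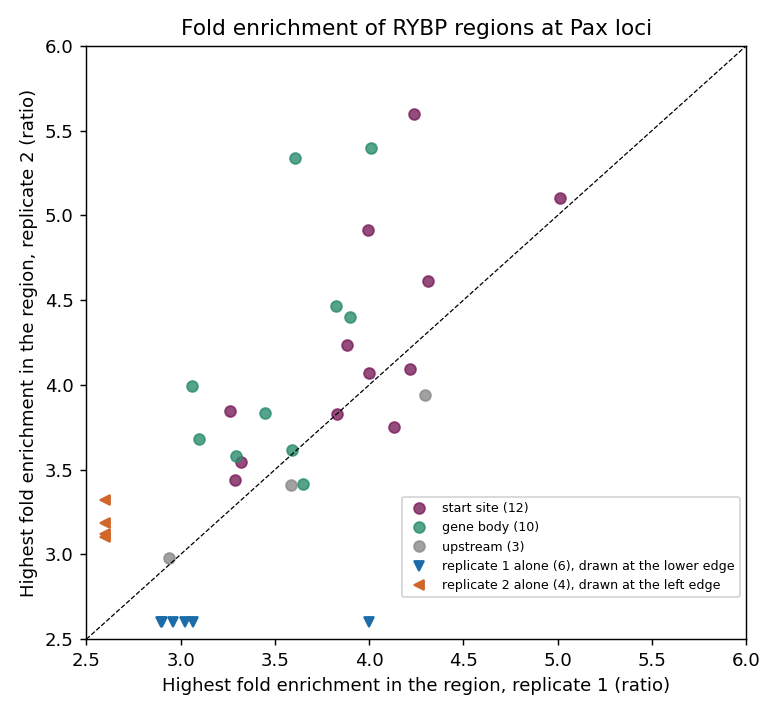
Highest fold enrichment (a ratio, linear scale) of each Pax region in replicate 1 against replicate 2, colored by class, with the line of equal values dashed. Of the 25 regions found in both, 19 lie above the line, and the 10 regions of a single replicate are drawn along the edges.

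Because peaks at Pax loci often followed each other closely, regions separated by at most 2 kb were joined into chains, a step chosen after the data had been seen. Of 19326 chains in the series, 211 (1.09%) were 10 kb or longer, and a chain of that length lay at 1.40% of all loci and at 2.02% of those with a CpG-rich start. At 6 of 9 Pax loci there was such a chain. At Pax6 it ran over 31.7 kb, from −9.02 kb to 22.7 kb about the most upstream start, rank 9 of all chains by length. At Pax7 8 regions made up 31.5 kb, from −5.57 kb to 25.9 kb, rank 10. These chains covered the whole start cluster of Pax6 and the first introns of Pax7.

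Pax2 differed in that most of its chain of 25.1 kb (rank 15) lay before the gene, from −16.4 kb to 8.69 kb. The chain of Pax3, 16.6 kb long, was nearly centered on the start, from −8.51 kb to 8.13 kb. At Pax1 the chain of 14.8 kb, from −1.39 kb to 13.4 kb, and at Pax9 that of 12.4 kb, from −3.61 kb to 8.80 kb, were mostly inside the gene. The longest chain at Pax5 was 6.56 kb and the region of Pax8 stood alone. With a single replicate left out, 6 Pax loci held a chain of 10 kb or more in either case, and with gaps of at most 1 kb 5 did, the chain of Pax1 then being broken.

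CpG density differed between the classes of regions as well. Pax regions had a median of 2.51 CpG per 100 bp, below the 4.08 of all merged regions. The median was 3.63 at start sites, 1.92 in gene bodies and 1.55 upstream. Regions found in both replicates had a median of 3.29 and those of a single replicate 1.40. Among regions of 4 kb or more the order was the same, with a median of 3.29 at Pax loci against 4.22 in the whole list.

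The introns of Pax5 and Pax7 stood at opposite ends. The 8 gene-body regions of Pax7 had between 0.749 and 1.92 CpG per 100 bp, all under 2. The 4 of Pax5 had between 2.42 and 6.03, and the 2 highest of these, 6.03 and 5.52, exceeded every start-site region of the family, the highest of which, at Pax5, had 4.80. The region at 5.52 holds the start of the non-coding transcript Gm12462, so it is not intron alone. The printed intron sequences, with 18 and 1 CpG, come from these sets. Of all merged regions 28.4% had under 2 CpG per 100 bp, and 5.56% of those were found in both replicates. Of the 13 Pax regions under 2, 6 were found in both, 3 of them in the introns of Pax7. As 8 of the 13 were gene-body regions of Pax7, these counts rest largely on 1 locus. Wider regions also had more chance to touch peaks of both lists.

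**Figure D4:**
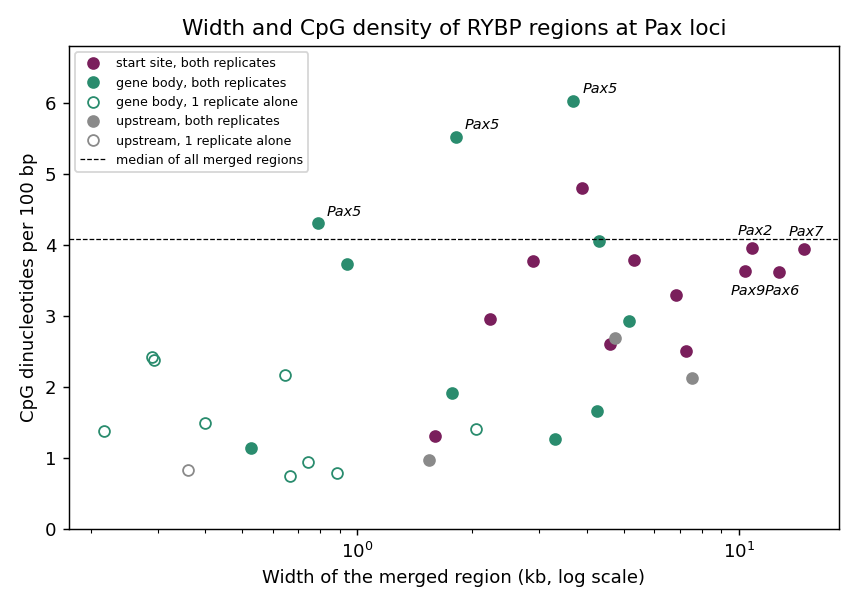
Width of each Pax region in kb (log axis) against its CpG dinucleotides per 100 bp, with filled points for regions found in both replicates and open points for those of a single replicate. The dashed line is the median of all merged regions, 4.08, and the intronic Pax5 regions above it are labelled with the 4 widest start-site regions, which lie just under it.

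No region at a Pax locus came within 2.5 kb of the start of another protein-coding gene. Elp4 and Slc25a21, whose loci overlap those of Pax6 and Pax9, have their own starts elsewhere, and each had a region there, of 0.261 kb in replicate 1 alone at Elp4 and of 1.03 kb in both replicates at Slc25a21. Non-coding starts were inside 5 Pax regions. Besides 1700039E22Rik and Gm12462, these were AI646519 at Pax1, Pax6os1 at Pax6 and Gm15524 at Pax9, all in start-site regions. The occupancy of the coding gene and of such a partner cannot be told apart there.

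The Eya and Dach genes and Six2 to Six6 encode proteins of families that work with Pax proteins in the network of eye, kidney and muscle development, and were read in the same way. Of 11 genes, 9 had a merged region and 9 had it at a start site, and 8 had one found in both replicates. The shares over all genes were 57.1%, 53.4% and 38.9%, and with a CpG-rich start 83.8%, 81.8% and 59.8%, and the exact binomial interval of 9 of 11, 48.2% to 97.7%, held both shares for a merged region. A region of 4 kb or more was present at 3 of 11 (2.88% of all loci), at least 10% coverage at 5 of 11 (14.0%) and a chain of 10 kb or more at 2 of 11 (1.40%). Eya2 and Eya3 had no region, and that of Dach2, 196 bp at 3.81-fold, was found in replicate 2 alone. The most covered bases were at Six3 (18.2 kb, 78.3% of its locus), Six2 (8.83 kb, 98.2%) and Six5 (4.55 kb, 51.7%), whose loci are shorter than that of most Pax genes. Their highest peaks reached 4.04-fold and 5.39-fold at Six3, 4.21-fold and 4.79-fold at Six2, and 4.33-fold and 4.15-fold at Six5, in replicates 1 and 2.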

How the data were processed

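RYBP ChIP-seq from FLK1+ mesoderm was analysed in 2 replicates, grouped by the labels. The 2 input samples carried no processed file used here. Reads were aligned to mm9 with Bowtie 1.1.2b and peaks were called with MACS2 2.0.10, and bedtools was also listed, according to the submitters' processing notes. The authors removed duplicates and called broad peaks in each replicate separately. The deposited lists give for each peak a fold enrichment (a linear ratio), −log10 of the p-value and of the q-value, and a score. The deposited merged list gives positions only. Replicate 2 starts were moved by 1 bp, after which all 22409 merged regions were identical to the union of both lists. Read depth was not part of the lists.

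Regions were intersected (minimum overlap 1 bp) with GENCODE gene models on NCBIM37 in Python 3.11.15 with numpy 2.4.6, pandas 2.3.3 and scipy 1.17.1. Covered bases are counted within the locus, whereas widths are those of whole regions. CpG density was counted over each region, or 500 bp on each side of the most upstream start. Intervals are exact binomial at 95%. Counts of overlaps were tested on intervals placed at known genes against a brute-force count, and the coverage code was not tested in this way. No test across genes was made. All 9 Pax genes are named, and of Six2 to Six6 and the Eya and Dach genes those without a region, those without one at a start site or in both replicates, and the 3 with most covered bases. A gene of that list is not reported here. Other genes are named only where their start is within 2.5 kb of a Pax region or their locus overlaps a Pax locus. The members and gene lists were chosen with earlier results of these data known. Alternatives were each replicate left out, stricter thresholds, other loci, windows and overlaps.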

Additional observations from a re-analysis of the deposited data

How the results depend on the processing

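No paired analysis was possible because peaks of 1 group only were read, the inputs having no processed file used here, and no value comes from a test. The counts of Pax loci with a region, with one in both replicates, and of Pax genes with one at a start site were 8 under every alternative tried, and those for the Eya, Dach and Six2 to Six6 genes were 8 or 9. Pax loci with a region of 4 kb or more were 5 to 6, the lower count from replicate 2 peaks alone, in which Pax1 had none. The share of Pax regions at a start site, 34.3%, depended on the setting. It was 50% with −log10 q of at least 2, 38.7% with a fold enrichment of at least 3, 48% with regions of both replicates, 57.1% with a window of 5 kb, 30% with 10 kb upstream and 28.6% with the most upstream start only. With each replicate left out it was 41.7% to 47.2%, the peaks of 1 replicate being counted. Median coverage of a locus, 18.6%, was 14.6% over the gene body alone and 23.0% with 10 kb upstream, and 14.5% to 17.4% with a replicate left out. Coverage of the start-site windows was 67.1% to 70.1%, and of gene bodies 6.44% to 6.85%, with a replicate left out. Which class held more regions turned with the setting: gene-body regions outnumbered start-site ones in the merged list, whereas start-site ones were the more numerous with a window of 5 kb, with −log10 q of at least 2, among regions of both replicates and among replicate 2 peaks. Peak lists without reads set the limits here: the lists give no read counts, the broad caller decides where a peak ends, and inputs were not re-examined.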

Other observations

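The flanks of the Pax loci, read 100 kb to each side after the data had been seen, differed between members. Upstream of the Pax2 locus lay 14 regions, 10 of them found in both replicates, with 25.3 kb covered and no protein-coding gene in the interval. Among them was the region of 7550 bp already counted at the Pax2 locus, most of which lay beyond its edge. Upstream of Pax3 there were 3 regions, all found in both replicates, which covered 12.1 kb, again with no protein-coding gene. The flanks of Pax1 held 0 regions on both sides, as did the downstream sides of Pax3, Pax5, Pax6 and Pax9. Upstream of Pax7 there were 6 regions, of which 1 was found in both replicates, covering 2.87 kb. These are positions and bases under peaks only, and no gene is assigned to them.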
